A study of Homo sapiens with 4 samples.

Results

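Primary cilia are built and maintained by a small set of protein machines, and 44 protein-coding genes that encode them were examined here. The genes were chosen by symbol: those beginning with IFT, BBS, NPHP, TCTN or B9D and a digit, those beginning with DYNC2, and MKS1, CC2D2A, RPGRIP1L, TMEM67, TMEM216, TMEM231, WDR19, WDR35, TTC21B and TULP3. They were 44 of 19672 protein-coding genes, and of 46427 named genes, in the expression table. A further 3 genes matched by symbol but were annotated as long non-coding RNAs and were left out.

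In intraflagellar transport (IFT), trains of IFT-B and IFT-A complexes move along the ciliary microtubules, outward with kinesin-2 and back with the dynein-2 motor. The BBSome, which is assembled with the help of chaperonin-like BBS proteins, rides on these trains and carries membrane proteins out of the cilium, and a gate at the cilium base, the transition zone, controls which proteins enter. Most mammalian cell types can form a primary cilium when they leave the cell cycle and resorb it before they divide, and inherited defects in these genes cause ciliopathies such as Bardet-Biedl, Meckel and Joubert syndromes and nephronophthisis.

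The RNA came from NCI-H1299, an established human line of non-small cell lung cancer, and from a DDX21 knockout line (DDX21 KO) made from it, where DDX21 is a nucleolar RNA helicase. The 4 groups were non-treated H1299, H1299 transfected with a mimic of the microRNA miR-34a, non-treated DDX21 KO and DDX21 KO transfected with the same mimic. Transfected cells received 25 nM RNA and were collected 48 h later. The labels mention no control RNA for non-treated cells and do not say whether the knockout line was 1 clone. Each group had 1 library, so no difference has a replicate check and no p-value was computed.

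Totals ran from 26868358 to 36263145 estimated counts per library, and protein-coding genes took 86.9% to 88.8% of them. The level of a gene is given either as CPM, its count scaled by library size, or as TPM, which also corrects for gene length and allows genes to be compared. DDX21 stood at 722 (non-treated H1299), 588 (miR-34a H1299), 206 (non-treated DDX21 KO) and 182 CPM (miR-34a DDX21 KO), an order kept below for every gene. Its transcript was lower in both knockout libraries but was still detected. Markers of the alveolar cells of the lung were near 0 in every library, with a summed level of the 8 genes between 0.366 and 0.784 CPM and SFTPA1, SFTPA2, SFTPB and SFTPC at 0 throughout. Among 14 markers of multiciliated cells, 5 to 7 were at 0 in each library, including DNAI2 and RSPH1 in all 4. The summed level of these markers was 44.5, 67.1, 46.3 and 67.3 CPM in that order, and most of it was DNAH5 at 34.6, 55.9, 37.1 and 57.0 CPM. The multiciliated sum was thus higher in both miR-34a libraries, mostly through DNAH5. The other markers did not all move that way. CCNO stood higher with miR-34a in both lines, at 2.27, 3.77, 1.86 and 2.59 CPM. In DDX21 KO that rested on 50 and 85 counts, and the log2 ratio of 0.47 had a counting interval of −0.04 to 1.02, which includes 0. MCIDAS, a regulator of multiciliation, was lower with miR-34a in both lines, at 5.63, 3.89, 4.60 and 3.23 CPM. CCDC78 stood at 1.37, 1.22, 1.26 and 2.41 CPM, higher with miR-34a in DDX21 KO but not in H1299. Apart from DNAH5, the remaining markers had at most 32 counts in any library. The part of these markers in the results below was not tested. Markers of fibroblasts and leukocytes summed to at most 1.04 and 0.336 CPM, and those of endothelial cells to at most 6.10 CPM, mostly KDR.

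All 44 genes were expressed in all 4 libraries, with counts from 113 to 11593. The highest mean level belonged to DYNC2I2, an intermediate chain of dynein-2, at 110, 85.6, 55.2 and 59.9 TPM. IFT57, an outer subunit of IFT-B, followed with a mean of 44.6 TPM, and IFT43, a small IFT-A subunit, with 40.5 TPM. The lowest mean belonged to DYNC2I1, the other dynein-2 intermediate chain, at 2.22, 2.78, 1.68 and 1.86 TPM, followed by BBS12 at 2.27 TPM and BBS5 at 2.67 TPM. Both intermediate chains belong to the same motor, yet DYNC2I2 stood far above DYNC2I1 in every library. DYNC2I2 overlaps SPTAN1, a highly expressed gene on the other strand (10498 to 17958 counts), and it is not given whether the counting used strand, so its level is uncertain.

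**Figure D1:**
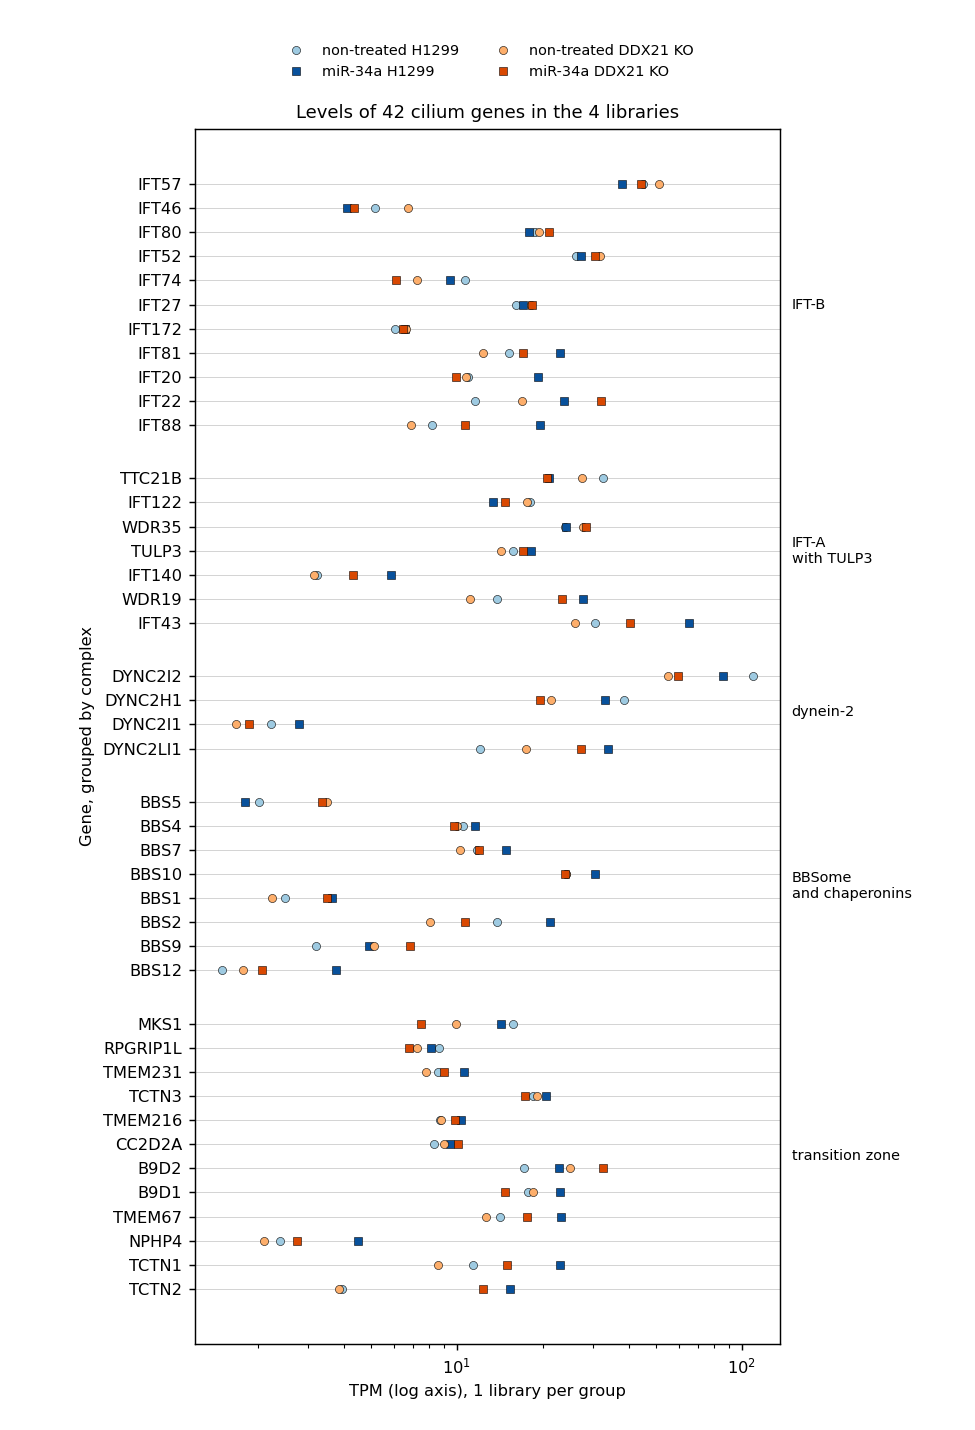
Levels of 42 of the genes in TPM on a log axis, grouped by complex, with 1 point for each of the 4 libraries (circles, non-treated; squares, miR-34a; blue, H1299; orange, DDX21 KO). DYNC2I2 lies furthest to the right with a mean of 77.6 TPM, and the blue squares of TCTN2, IFT88 and DYNC2LI1 lie well to the right of the blue circles.

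The first comparison asked how the cilium genes differed between miR-34a and non-treated H1299. They were mostly higher with miR-34a: 10 of 44 genes (22.7%) were higher by at least 2-fold with a 95% counting interval that excluded no change, and 0 were lower. Among all 13597 genes with at least 50 counts in either library, 3.62% were higher and 4.27% lower by the same rule. At 1.5-fold, 18 of the 44 were higher and 0 lower, against 10.6% and 12.9% of all genes. The median log2 ratio was 0.33, against 0.00 for all genes, and 36 of the 44 ratios were above 0, against 6822 of the 13597. Counting intervals lay wholly above 0 for 34 genes and wholly below 0 for 4, against 4991 and 4841 of the 13597. These intervals, given in brackets below, cover counting error only.

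The transition zone held 4 of the 10 genes, among them TCTN2, which had the highest ratio of the whole set. TCTN2 (gene 79867, chromosome 12, 123671108 to 123708405 on GRCh38) encodes a tectonic protein of the gate at the cilium base and stood at 7.67, 32.1, 7.69 and 25.6 CPM. Both miR-34a libraries were high and both non-treated libraries low, whichever the line. Its level was 4.15-fold higher with miR-34a in H1299, a log2 ratio of 2.05 (1.87 to 2.26). TCTN2 was also the one cilium gene of the 44 among the 908 genes of the authors' deposited table, where its fold is 4.17 in H1299 (raw p-value 0.0180, adjusted 1.00) and 3.41 in DDX21 KO (raw p-value 0.0411, adjusted 1.00). The sources used here do not name the method behind those p-values. Those folds come from the same 4 libraries, so they are not separate support. Counts of its most abundant transcript, NM_024809, were 153, 398, 102 and 579, and those of NM_001143850 were 58, 375, 52 and 196. These 2 of its 6 annotated transcripts were thus higher with miR-34a in both lines, but the division of counts between transcripts is uncertain.

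TCTN1, a second tectonic, stood at 15.2, 34.7, 12.7 and 21.0 CPM, with a log2 ratio of 1.18 (1.04 to 1.34) in H1299. NPHP4, a scaffold protein of the transition zone, stood at 7.93, 16.1, 6.98 and 9.70 CPM and passed the 2-fold limit by little, at 1.01 (0.81 to 1.23). For both genes the miR-34a H1299 library was the highest. TCTN3, the remaining tectonic, differed less: 31.3, 37.5, 32.9 and 31.2 CPM, a ratio of 0.26 (0.14 to 0.38). The lowest ratio of the 13 transition zone genes was that of MKS1, a B9-domain protein mutated in Meckel syndrome, at −0.04 (−0.18 to 0.10), and the group's median was 0.52.

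Within IFT-B, the train complex for outward transport, 2 of 11 genes were called higher. IFT88 (gene 8100, chromosome 13, 20566446 to 20691444), a core subunit without which mouse cells form no normal cilia, stood at 16.8, 41.5, 14.1 and 23.2 CPM. Its ratio in H1299 was 1.30 (1.17 to 1.45). Most of the increase fell on the transcript NM_006531, with 91, 676, 126 and 364 counts, but the division of counts between transcripts is uncertain. IFT22, a small GTPase-like subunit, stood at 37.6, 82.3, 52.7 and 107 CPM, a ratio of 1.13 (1.03 to 1.22), and was high in both miR-34a libraries. The IFT-B genes were uneven: IFT81, which binds tubulin together with IFT74, was at 0.76, whereas IFT74 itself was at 0.20 and IFT57 at −0.14 (−0.21 to −0.06), the lowest of the group. The IFT-B median was 0.22.

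Among the 7 genes of IFT-A, the complex for return transport and for entry of membrane proteins, counted with its adaptor TULP3, 2 were called higher. IFT43 stood at 16.9, 39.0, 14.9 and 23.8 CPM, a ratio of 1.21 (1.07 to 1.35). WDR19, a large core subunit, stood at 44.5, 97.2, 40.7 and 82.0 CPM, a ratio of 1.12 (1.04 to 1.21). Another subunit of the same complex, TTC21B, went the other way. It stood at 132, 90.0, 115 and 89.1 CPM, lower in both miR-34a libraries than in both non-treated ones, and its ratio of −0.56 (−0.62 to −0.49) was the lowest of all 44 genes. IFT122, also of IFT-A, was at −0.30 (−0.41 to −0.20), so subunits of a single complex lay on both sides of 0.

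Of the dynein-2 genes, DYNC2LI1 had the highest ratio and was the only one of 4 called. DYNC2LI1 (gene 51626, chromosome 2, 43774039 to 43828320), the light intermediate chain of the motor, stood at 11.3, 34.1, 16.2 and 27.0 CPM. It was 3.00-fold higher with miR-34a in H1299, a ratio of 1.59 (1.43 to 1.76). The heavy chain DYNC2H1, the force-producing subunit, stood at 325, 320, 198 and 190 CPM and hardly differed with miR-34a, at −0.02 (−0.06 to 0.01). DYNC2I1 was at 0.38 (0.11 to 0.66) and DYNC2I2 at −0.27 (−0.33 to −0.21).

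Of the 8 BBSome and chaperonin genes, 7 had ratios above 0 and the median was 0.54. BBS12, a chaperonin-like protein that helps to assemble the BBSome, stood at 3.33, 8.82, 4.20 and 4.94 CPM. The miR-34a H1299 library was above the other 3, and the ratio was 1.39 (1.09 to 1.72). BBS12 had few counts, and their division between transcripts was unstable, with 79, 277, 0 and 94 for NM_152618 and 40, 0, 113 and 68 for NM_001178007. Such division was not limited to genes with few counts. DYNC2H1, the gene with the most, had 0, 9550, 0 and 0 counts for XM_006718903, so the transcript counts given here are uncertain. The BBSome subunits BBS9, BBS2 and BBS1 lay above 1.5-fold but under 2-fold, at 0.74, 0.71 and 0.65. BBS5, another subunit, had the lowest ratio, −0.05 (−0.40 to 0.29).

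**Figure D2:**
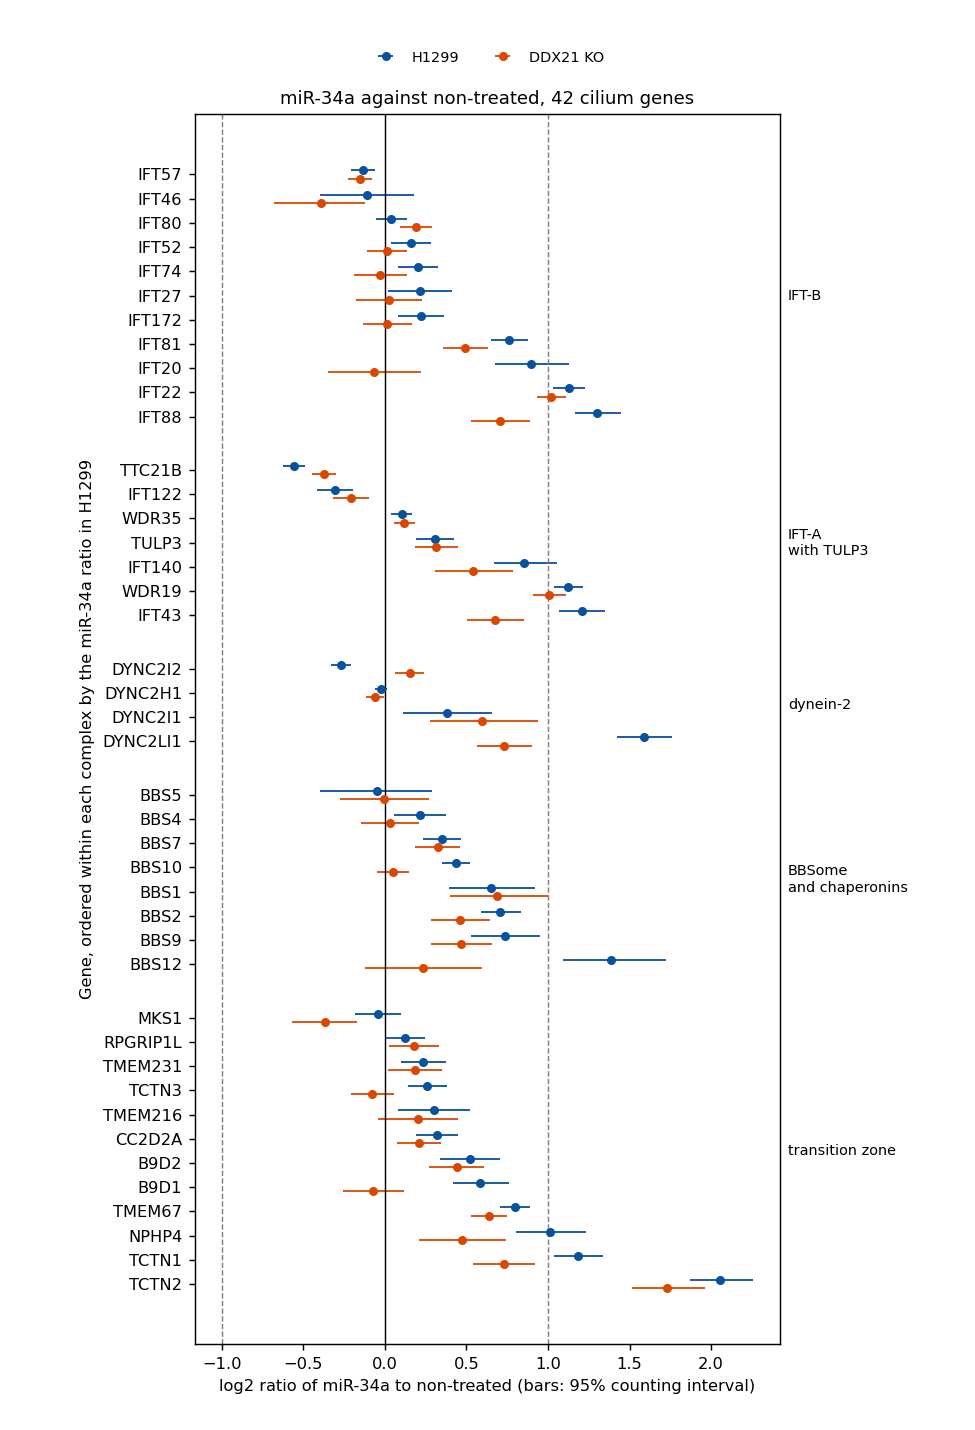
Log2 ratio of miR-34a to non-treated for 42 of the genes in H1299 (blue) and DDX21 KO (orange), with bars for 95% counting intervals and dashed lines at 2-fold. Points lie mostly to the right of 0, with TCTN2 furthest to the right in both lines (2.05 and 1.73) and TTC21B furthest to the left in H1299 (−0.56).

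The mature miR-34a sequence is shown because its seed, bases 2 to 8 in capitals, pairs with target sites in 3′ untranslated regions and lowers the level of the transcripts that hold them. It is the RefSeq entry, encoded at chr1:9151735-9151756 on the minus strand of GRCh38.p14.
hsa-miR-34a-5p: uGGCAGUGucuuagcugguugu
The sites searched were CACTGCC and ACTGCCA, the first of which pairs with bases 2 to 8 and the second with bases 2 to 7 followed by an A, on the transcript strand of the longest 3′ untranslated region of each gene (GENCODE 29, GRCh38). Overlapping matches to both make an 8-base match. Few of the cilium genes held one: 4 of 44 (9.09%), against 2786 of 11909 protein-coding genes that entered a comparison (23.4%), and 0 of the 44 held the 8-base match. The 5 sites in these 4 genes are shown within 25 bases, with the match in capitals.
BBS10, chr12:76345212-76345236, minus strand: cattggtttACTGCCActtcatttg
IFT22, chr7:101315102-101315126, minus strand: tcacctgggACTGCCAcatccccag
RPGRIP1L first site, chr16:53601864-53601888, minus strand: cttctcataACTGCCAcccctcagg
RPGRIP1L second site, chr16:53599299-53599323, minus strand: tcatggtttACTGCCAtttaactta
TULP3, chr12:2940898-2940922, plus strand: atcctgaggCACTGCCtggcagata
All 4 genes had ratios above 0 in both lines. The intervals of RPGRIP1L in H1299 (−0.001 to 0.249) and of BBS10 in DDX21 KO (−0.05 to 0.15) include 0, however. Their H1299 ratios were 0.44 for BBS10, 1.13 for IFT22, 0.12 for RPGRIP1L and 0.31 for TULP3, and their DDX21 KO ratios were 0.05, 1.02, 0.18 and 0.32. The median of the 4 in H1299, 0.37, was close to that of the 40 cilium genes without a site, 0.33. Over all protein-coding genes that entered, genes with a site had a median of −0.10 in H1299 and −0.08 in DDX21 KO, and genes without one 0.06 and 0.03. A match of letters does not show a site in use.

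The second comparison repeated the transfection in DDX21 KO cells, against their own non-treated library, and shares no library with the first. The cilium genes were again mostly higher with miR-34a, by less. In this line 3 of 44 genes (6.82%) passed 2-fold upward and 0 downward, where 1.62% of 13382 genes were higher and 1.69% lower. At 1.5-fold, 11 of the 44 were higher and 0 lower, against 5.96% and 6.8% of all genes. The median ratio was 0.21, against 0.00 for all genes, with 33 of the 44 above 0, against 6697 of the 13382. Intervals lay wholly above 0 for 26 genes and wholly below 0 for 6, against 3985 and 4073 of the 13382. The 3 genes called were TCTN2 at 1.73 (1.51 to 1.96), IFT22 at 1.02 (0.93 to 1.11) and WDR19 at 1.01 (0.91 to 1.11), all of which were called in H1299 too. IFT22 and WDR19 lay just past 2-fold.

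Below 2-fold, the highest DDX21 KO ratio of the BBSome group was that of BBS1 (5.66, 8.91, 5.20 and 8.42 CPM) at 0.69 (0.40 to 1.00). BBS5 was again at the bottom of that group, at −0.00 (−0.28 to 0.27). IFT46, an IFT-B subunit, stood at 6.13, 5.69, 8.32 and 6.32 CPM and had the lowest DDX21 KO ratio of all 44, −0.39 (−0.68 to −0.12). It overlaps TMEM25 and the far more abundant ARCN1 (5121, 7069, 4295 and 6591 counts) on the other strand, so its value is uncertain. TTC21B and MKS1 were next, at −0.37 each, while DYNC2LI1 led the dynein-2 genes at 0.73 (0.57 to 0.90). The DDX21 KO group medians were 0.02 for IFT-B, 0.32 for IFT-A with TULP3, 0.37 for dynein-2, 0.28 for the BBSome group and 0.21 for the transition zone, so IFT-B as a group was near 0 in this line although IFT22 was called.

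Across the 44 genes, the miR-34a ratios of both lines followed each other, with Pearson's r of 0.83 and Spearman's rho of 0.81. Over the 13015 genes that entered both comparisons r was 0.65 and rho 0.68. The points are genes of the same 4 libraries, so these values are descriptions only. Of the 44 genes, 32 were above 0 in both lines, against 4967 of the 13015. The DDX21 KO ratio lay below the H1299 ratio for 33 of the 44, against 6731 of the 13015. The miR-34a ratios were narrower in DDX21 KO over all genes too. Their standard deviation was 0.42 in DDX21 KO and 0.57 in H1299 over the 13015 genes, and 0.42 and 0.56 over the 44. Whether the lower DDX21 KO ratios of the 44 go beyond this narrower spread was not tested.

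**Figure D3:**
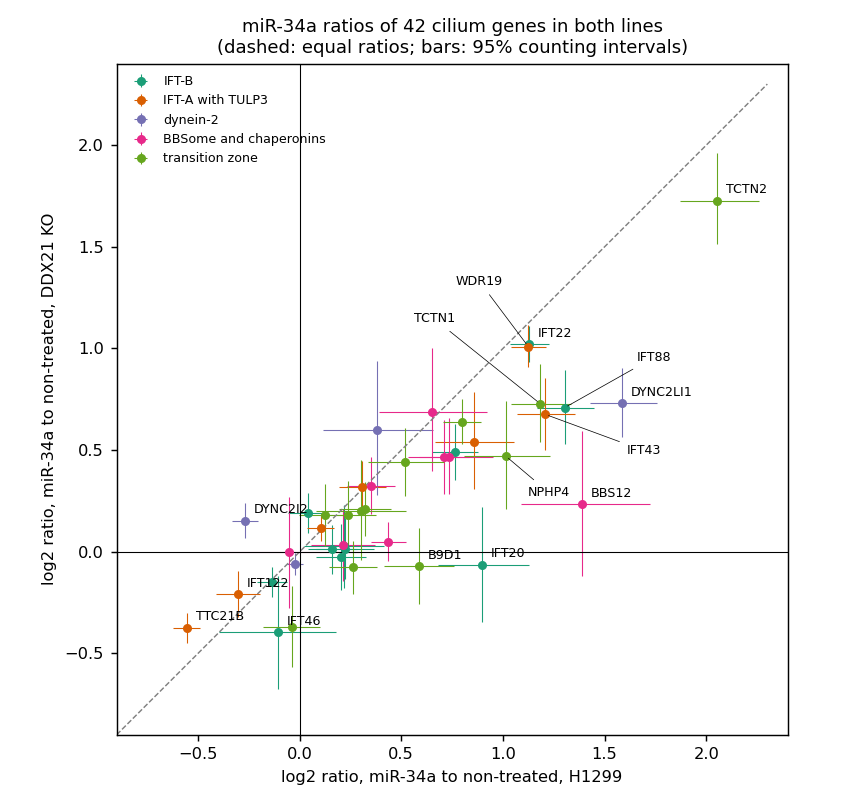
Log2 miR-34a ratio of 42 of the genes in H1299 (x axis) against DDX21 KO (y axis), coloured by complex, with 95% counting intervals and a dashed line where both ratios are equal. Of the 42 points, 32 lie below the dashed line, and BBS12, DYNC2LI1 and IFT20 lie furthest below it.

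The miR-34a ratio in DDX21 KO minus that in H1299 was then taken for each gene. It was at least 2-fold for 1 of 44 genes, in the lower direction (2.27%), and for 0 in the higher direction, where 2.07% of 13964 genes were lower and 2.11% higher. At 1.5-fold, 5 of the 44 were lower and 0 higher, against 5.26% and 5.7% of all genes. The median difference was −0.17, against −0.01 for all genes. Intervals lay wholly below 0 for 19 of the 44 and wholly above 0 for 3, against 3484 and 3181 of the 13964 genes.

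BBS12 was the gene past 2-fold, at −1.15 (−1.61 to −0.69). Its miR-34a ratio was 1.39 in H1299 and 0.23 in DDX21 KO (−0.12 to 0.60), whose interval includes 0. IFT20, an IFT-B subunit that also sits at the Golgi, had a difference of −0.96 (−1.31 to −0.61) and stood at 7.31, 13.7, 7.24 and 6.93 CPM: the miR-34a H1299 library stood above the other 3, which were alike. IFT20 overlaps TMEM97 on the other strand, whose own ratio in H1299 was −1.02 against 0.90 for IFT20. DYNC2LI1 had a difference of −0.85 (−1.09 to −0.62), IFT88 of −0.59 (−0.82 to −0.37) and B9D1, a B9-domain protein of the transition zone (13.5, 20.3, 16.4 and 15.6 CPM), of −0.66 (−0.91 to −0.41). For each of the 5, the miR-34a H1299 library was the highest of the 4. In the other direction DYNC2I2 had the largest difference, 0.42 (0.31 to 0.53), and its level in non-treated H1299 stood above the other 3 libraries.

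This pattern held for most of the set. The highest CPM lay in the miR-34a H1299 library for 28 of the 44 genes (63.6%), against 27.9% of the 13964 genes. It lay in miR-34a DDX21 KO for 8, and in each of the non-treated libraries for 4. The lowest CPM lay in non-treated DDX21 KO for 19 genes (43.2%, against 22.4% of all genes) and in non-treated H1299 for 15 (34.1%, against 27.8%, a share nearer to the background).

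The remaining comparisons set DDX21 KO against H1299, first without and then with miR-34a. They share their libraries with the comparisons above, so a high value in the miR-34a H1299 library raises the miR-34a ratio in H1299 and lowers the DDX21 KO ratio with miR-34a at the same time. Without miR-34a, none of the 44 genes passed 2-fold (0 higher, 0 lower in DDX21 KO), where 3.79% and 2.75% of 13600 genes were. At 1.5-fold, 2 were higher and 4 lower, against 9.16% and 9.86%, so the shares of the 44 were at or below those of all genes. The median ratio was −0.03, against −0.02 for all genes.

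The 4 genes lower in DDX21 KO by at least 1.5-fold without miR-34a were DYNC2I2, BBS2, DYNC2H1 and MKS1. DYNC2I2 (133, 111, 68.4 and 76.1 CPM) was at −0.96 (−1.04 to −0.89), DYNC2H1 at −0.72 (−0.76 to −0.67) and MKS1 (24.6, 24.0, 16.0 and 12.4 CPM) at −0.62 (−0.79 to −0.45). For these 3 genes both DDX21 KO libraries lay below both H1299 libraries. BBS2, a BBSome subunit, stood at 25.3, 41.5, 15.0 and 20.7 CPM and at −0.75 (−0.93 to −0.59), and it too was lower in both knockout libraries. The 2 higher genes were subunits of the same BBSome: BBS5 (4.29, 4.14, 7.61 and 7.60 CPM) at 0.82 (0.52 to 1.14) and BBS9 (8.68, 14.5, 14.1 and 19.5 CPM) at 0.70 (0.48 to 0.92). Of the BBSome subunits, BBS2 was thus lower and BBS5 and BBS9 were higher in DDX21 KO. The others differed less. BBS7 was at −0.22 (−0.36 to −0.08). BBS1 at −0.12 (−0.44 to 0.20) and BBS4 at −0.04 (−0.22 to 0.13) had intervals that include 0. BBS2 overlaps OGFOD1 on the other strand (1962, 1973, 1153 and 1655 counts), so its value is uncertain.

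With miR-34a, again none passed it (0 higher, 0 lower), where 3.99% and 2.96% of 13621 genes were. At 1.5-fold, 1 was higher and 10 (22.7%) were lower, against 9.85% and 9.86% of all genes. The median ratio was −0.24, against −0.01 for all genes, and intervals lay wholly below 0 for 27 genes and wholly above 0 for 9, against 4856 and 4656 of the 13621. BBS2 had the lowest ratio, −0.999 (−1.14 to −0.87), and lay just inside 2-fold. IFT20 followed at −0.97 (−1.22 to −0.75) and MKS1 at −0.95 (−1.13 to −0.78). IFT88, BBS12, NPHP4, TCTN1 and IFT43, all of which were called higher with miR-34a in H1299, lay between −0.84 and −0.71, and DYNC2H1 was at −0.75 and IFT74 (28.9, 33.3, 21.2 and 20.8 CPM) at −0.68. BBS5 was the one higher gene, at 0.87 (0.57 to 1.19).

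Other genes at the ends of their group differed between the lines by less than 1.5-fold. For the transition zone, B9D2 (11.7, 16.8, 17.4 and 23.6 CPM), a partner of B9D1 and MKS1, had the highest DDX21 KO ratio, 0.57 without and 0.49 with miR-34a. RPGRIP1L (29.2, 31.8, 22.9 and 25.9 CPM), a scaffold of the transition zone, had the highest difference of miR-34a ratios in that group, 0.06 (−0.14 to 0.25). For IFT-A, WDR35 (109, 118, 126 and 137 CPM) was highest in DDX21 KO, at 0.21 and 0.23, and IFT140 (9.94, 18.0, 8.58 and 12.5 CPM) was lowest without miR-34a, at −0.21. IFT22 led IFT-B in DDX21 KO at 0.48 and 0.38. IFT80 (51.2, 52.7, 53.9 and 61.6 CPM) was the one IFT-B gene with a higher miR-34a ratio in DDX21 KO than in H1299, by 0.15 (0.02 to 0.29). IFT57, at 92.1, 83.9, 108 and 96.9 CPM, varied little.

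**Figure D4:**
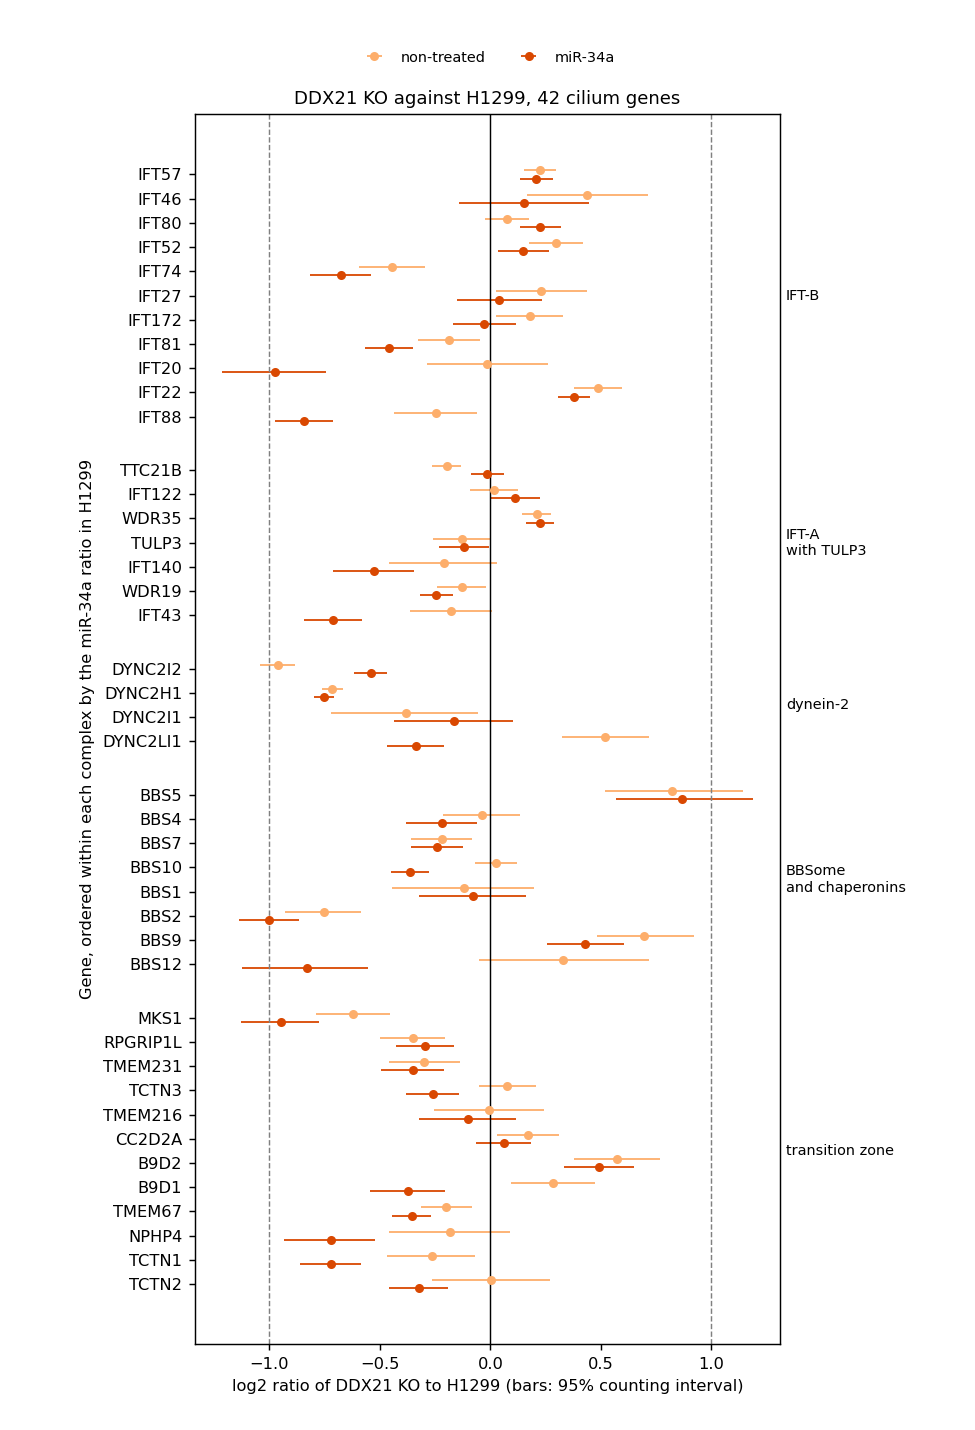
Log2 ratio of DDX21 KO to H1299 for 42 of the genes without miR-34a (light orange) and with it (dark orange), with bars for 95% counting intervals and dashed lines at 2-fold. Points without miR-34a scatter about 0, and 30 of the 42 points with miR-34a lie below it.

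The loci of 13 of the 44 genes overlap another gene with at least 50 counts, and reads there could have been split between both. Of the 10 genes called with miR-34a in H1299, IFT22 was the one with such a neighbour, the non-coding EMSLR, whose ratio was 0.15. IFT80 shares exons with the readthrough gene TRIM59-IFT80, which had 1106, 566, 704 and 519 counts and was lower with miR-34a in both lines (−0.85 and −0.72), while IFT80 was at 0.04 and 0.19. The readthrough thus went against the gene it overlaps, and the value of IFT80 is uncertain.

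RFX transcription factors bind a palindromic promoter element, the X-box, in many cilium genes. The letters GTTNCC, a spacer of 0 to 3 bases of any kind and GGNAAC were searched from 250 bases before to 50 bases after each annotated start in RefSeq (GRCh38.p14). The pattern is its own reverse complement, so a search of 1 strand covers both. Of the 37 cilium genes with a promoter entry, 3 held it (8.11%), against 168 of 15515 protein-coding genes of the table (1.08%). Among the genes with no promoter entry, which were not searched, were BBS9, IFT22, TCTN2, TMEM67 and WDR35. The matches, in capitals, are shown with 20 bases on each side, and the coordinates are those of the whole 300-base promoter.
TCTN1, chr12:110613879-110614178, plus strand, match from base 1 of the transcript: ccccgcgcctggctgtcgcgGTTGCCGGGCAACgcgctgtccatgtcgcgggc
TCTN3, chr10:95693878-95694177, minus strand, match from base −215: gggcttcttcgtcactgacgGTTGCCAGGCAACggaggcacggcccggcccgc
IFT122, chr3:129439974-129440273, plus strand, match from base −12: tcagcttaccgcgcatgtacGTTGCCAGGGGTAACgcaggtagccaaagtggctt
TCTN1 and TCTN3 held a spacer of 1 base and IFT122 one of 3. The 3 genes did not move alike: the miR-34a ratios were 1.18 and 0.73 for TCTN1, 0.26 and −0.08 for TCTN3, and −0.30 and −0.21 for IFT122 in H1299 and DDX21 KO. A match of letters is a description of the promoter, and a missing match says only that these letters are not in this window.

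Other genes of cilium biology differed less as a whole. Of 108 genes listed by role, 105 were in the table and 87 entered in H1299. With miR-34a, 3 of the 87 passed 2-fold upward and 4 downward, close to the 3.62% and 4.27% of all genes, and their median ratio was 0.04. In DDX21 KO 86 entered, 1 was higher and 1 lower, where 1.62% and 1.69% of all genes were, and the median was 0.07. The 6 IFT-B subunits whose symbols do not begin with IFT were all above 0 in both lines, with medians of 0.79 in H1299 and 0.72 in DDX21 KO. In that list TTC30A was highest at 0.99 and 1.19, called in DDX21 KO. HSPB11 was lowest at 0.04 (−0.13 to 0.20) and 0.18 (−0.01 to 0.38), and both its intervals include 0. TTC30A and TTC30B are near-identical copies, so their split is uncertain.

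The kinesin-2 subunits KIF3A, KIF3B, KIF3C and KIFAP3 were above 0 in both lines, with KIF3B highest at 0.69 and 0.56. In DDX21 KO, however, KIF3C at 0.02 (−0.13 to 0.17) and KIFAP3 at 0.09 (−0.06 to 0.25) had intervals that include 0. KIF17, a separate kinesin-2, was lower by more than 2-fold in both, at −1.04 (197 and 87 counts) and −1.41 (158 and 71 counts). Light chains of dynein-2 had a median of 0.66 in H1299 and 0.10 in DDX21 KO, from DYNLL2 at −0.40 and −0.50 up to TCTEX1D2 at 0.84 in H1299 and DYNLT1 at 0.31 in DDX21 KO. For the BBSome, LZTFL1, which regulates its entry into cilia, was called higher in H1299 at 1.19 and stood at 0.89 in DDX21 KO, and the chaperonin-like MKKS was lowest at −0.46 and −0.37. The BBSome list had medians of 0.53 and 0.28.

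Further transition zone and inversin genes did not show the pattern of the 13 above, with medians of −0.17 in H1299 and 0.06 in DDX21 KO. They ran from INVS at −0.98 to TMEM17 at 0.58 in H1299, and from TMEM237 at −0.34 to TMEM17 at 0.89 in DDX21 KO. Genes of the ciliary membrane ran from TBC1D30 at −0.80 to INPP5E at 0.43, and from −0.41 to 0.47 for the same genes in DDX21 KO. Among genes of the distal appendages and of cilium start, CEP89 (1.03) and RABL2B (1.03) were called higher in H1299 and MPHOSPH9, at −0.53, was lowest. In DDX21 KO that list ran from MPHOSPH9 at −0.24 to CEP89 at 0.62. RABL2B also had a difference between the lines of −1.04, and since RABL2A is a near-identical copy, its value is uncertain.

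Genes known to suppress or disassemble cilia had a median of −0.27 in H1299 and −0.04 in DDX21 KO. The mitotic kinase PLK1 was called lower in H1299 at −1.35 and stood at −0.84 in DDX21 KO. AURKA, the kinase that starts cilium disassembly, was at −0.74 and −0.45, and CCP110, a cap on the mother centriole, was highest at 0.35 and 0.54. The multiciliation and cilium factor FOXJ1 had 0, 12, 0 and 4 counts and did not enter. RFX2 was lowest of the regulatory factors at −0.86 and −0.76. RFX1 was highest at 0.39 (−0.11 to 0.93) and 0.62 (0.07 to 1.23), on 59, 72, 40 and 76 counts. RFX3 stood at −0.30 (−0.43 to −0.17) and 0.11 (−0.06 to 0.28).

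Of 19 genes of Hedgehog signalling, which vertebrate cells relay through the cilium, 10 entered in H1299. The pathway's transcription factors GLI1, GLI2 and GLI3 were under 50 counts in each library, with GLI1, itself a target of the pathway, at 27, 14, 11 and 6. BOC, a co-receptor, was called lower in H1299 at −1.27 and IQCE was highest at 0.73. In DDX21 KO this list ran from CDON, another co-receptor, at −0.56 to IQCE at 0.48. Of the ciliary receptors and enzymes 4 of 8 entered, from GPR19 at −1.01, called lower, to PKD2 at 0.41 in H1299, and from GPR19 at −0.84 to PKD2 at 0.38 in DDX21 KO. Between the lines, TMEM237 was called higher (1.01) and FBF1 lower (−1.02) in DDX21 KO without miR-34a, and CDON higher (1.01) with it.

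**Figure D5:**
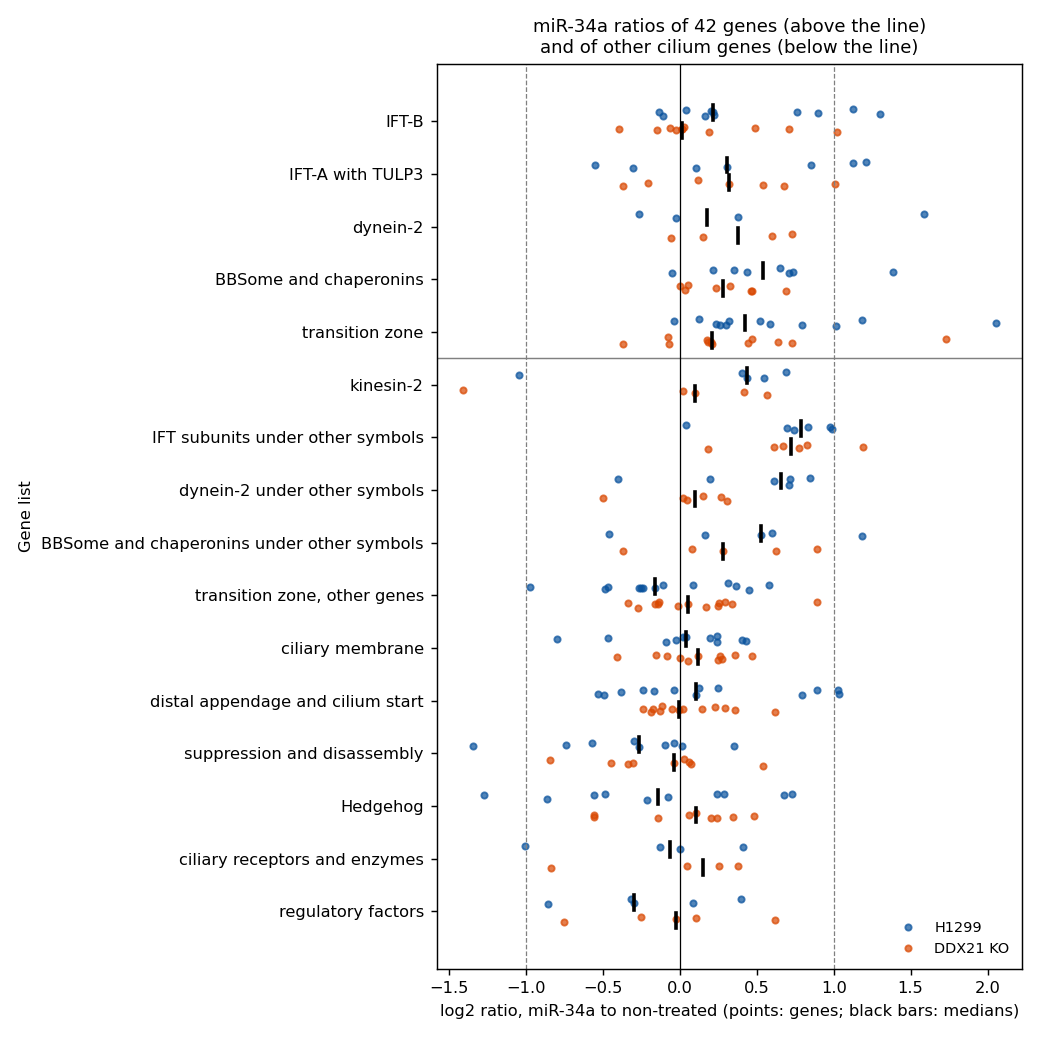
Log2 ratio of miR-34a to non-treated for each gene that entered, in H1299 (blue) and DDX21 KO (orange), with 42 of the genes by complex above the line, other cilium genes by role below it, and black bars at the medians of the genes plotted. IFT subunits under other symbols have the highest medians (0.79 and 0.72), and the regulatory factors have the lowest in H1299 (−0.30).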

How the data were processed

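RNA of 4 libraries was depleted of ribosomal RNA and sequenced from stranded libraries, per the labels' protocols. Bowtie2 2.0.6, TopHat2 2.0.9 and build GRCh38 are named in the submitters' processing notes. The sources used here name neither the counting tool nor its use of strand. The authors deposited estimated counts, FPKM and TPM, each per gene and per transcript, and their own pairwise comparisons with a signed fold change (a score with no values between −1 and 1) and p-values, per the file headers. The deposited estimated counts were whole numbers and were used as such.

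TMM scaling (trimmed mean of M values; edgeR 4.0.16, R 4.3.3) gave factors of 0.985, 0.997, 1.00 and 1.02. A gene entered a comparison with at least 50 counts in at least 1 of the libraries compared. Log2 ratios used a prior count of 2. Their 95% intervals were exact Clopper-Pearson intervals of the split of counts, and for the difference of ratios came from the Poisson variance of 4 counts. PCR copies are not independent, so the intervals cover counting error only. A gene was called higher or lower at 2-fold or more with an interval that excluded no change. A call compares 2 libraries, not conditions. TPM per gene was used as deposited. Transcript counts summed to the gene count for 44 of 44 genes. The functions were tested on simulated counts.

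Values are given for every gene called, for the highest and lowest of each complex with at least 3 genes, and for the highest and lowest TPM. The genes and lists were chosen with earlier results of these data known, so no list is independent support. Alternatives covered scaling (DESeq2 1.42.0 size factors, library totals, TMM on protein-coding genes), the minimum count, the prior count, FPKM and the fold for a call. Leaving out genes with an overlapping neighbour was added after seeing the data. The authors' gene ontology tables were not used. Values of single genes are not reported here for 2 of the 44, which enter the counts and medians.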

Additional observations from a re-analysis of the deposited data

Results flagged for a closer look

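DYNC2I2, an intermediate chain of dynein-2, differed with miR-34a in opposite directions in both lines, with log2 ratios of −0.27 in H1299 and 0.15 in DDX21 KO, a difference of 0.42. The ratio of DDX21 KO to H1299 was opposite without and with miR-34a for DYNC2LI1, at 0.52 and −0.34, a difference of −0.85. The same held for B9D1, at 0.28 and −0.37, a difference of −0.66. With 1 library per group, none of these 3 differences was tested. DYNC2I2 and B9D1 overlap other expressed genes, and their part in the differences was not tested.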

How the results depend on the processing

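The median log2 ratio of the 44 genes moved little in each comparison under the other scalings, minimum counts, prior count and FPKM scales: in H1299 with miR-34a it ran from 0.32 to 0.39, and in DDX21 KO from 0.20 to 0.24. The median of all genes moved only between −0.03 and 0.02. With a prior count of 0.5, 1 gene was lower by 2-fold in DDX21 KO with miR-34a (BBS2, −1.001). On FPKM with 1 added, which shrinks low genes, 0 genes were past 2-fold for the difference of the ratios (BBS12, −0.68). On that scale NPHP4 (0.67), BBS12 (0.84) and TCTN1 (0.998) in H1299 and IFT22 (0.93) in DDX21 KO were under 2-fold. NPHP4 was also under it with TMM on protein-coding genes (0.99) and on FPKM with 0.1 added (0.96), and IFT22 in DDX21 KO on the latter (0.99). At 1.5-fold the counts were 18 higher with miR-34a in H1299, 11 higher in DDX21 KO, 2 higher and 4 lower between the lines without miR-34a, 1 higher and 10 lower with it, and 5 lower for the difference. Without the 13 genes that overlap another expressed gene, an alternative chosen after seeing the data, 9 of the remaining 31 genes were higher in H1299 and 2 in DDX21 KO. Of all genes, 3.62% and 1.62% were higher. IFT22 was the one gene called with miR-34a that this left out, so these counts follow from the calls above. No gene with a call changed direction under any of these alternatives. Each group had 1 library, so no replicate numbers pair the libraries and no library could be left out. The miR-34a and non-treated libraries pair only by line. A fit of miR-34a with line as a block, which takes the difference between the lines as its error, was not run.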
